A study of Mus musculus with 4 samples.

Results

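The genes described here are those of 7 solute carrier families that move amino acids, neurotransmitters, taurine and creatine across membranes. They were found by their gene name on the array, which had to be a numbered member of the families SLC1, SLC3, SLC6, SLC7, SLC36, SLC38 or SLC43. The rule found 60 genes of 22290 named genes, carried by 80 probes and 98 spots, and each gene was represented by the probe with the highest mean signal. The rule uses no measured difference, but the families were chosen with earlier results of these data known. For 57 genes the transcript accession on the array led to the same symbol in RefSeq, and the other 3 (Slc6a5, Slc6a16 and Slc38a6) keep the name in the files.

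Total RNA of pancreatic islets from C57BL/6 mice aged 24 weeks was labelled with Cy3 and hybridised to 4 Agilent mouse arrays, so that each of 4 groups has 1 array. One group held transgenic males 6 weeks into treatment with an E2 implant (male Tg E2), E2 being the common abbreviation for estradiol. The others were transgenic females (female Tg), transgenic males labelled as diabetic (male Tg) and wild-type males (male WT). The labels used here name neither the transgene nor the cells in which it is active, and they do not say how many mice gave RNA to an array. Islets were freed with collagenase, separated on a gradient and picked by hand. There were no replicates, so each difference below is one between 2 single arrays, no test or p-value was possible, and precision is limited by the number of arrays.

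Carriers of these families set how much glutamine, leucine, arginine, glycine or cystine enters a cell and so feed protein synthesis, glutathione synthesis and the nutrient sensor mTORC1. In islets, arginine and other cationic amino acids depolarise beta cells as they enter. Alpha cells respond to circulating amino acids, and in mice the glutamine carrier Slc38a5 rises in alpha cells when glucagon signalling is blocked. The light chains among the SLC7 carriers reach the cell surface bound to a heavy chain of SLC3. In starved cells the factor ATF4 activates several of these carriers through amino acid response elements in their promoters.

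A level is the log2 processed Cy3 intensity of a probe minus the 75th percentile of its array, so that 0 marks that percentile and levels of different probes are not comparable. A gene was measured in a comparison when the scanner software called its probe well above background (a clear signal) on each of the 2 arrays. Errors are standard errors from the scanner software's error model. They cover spot and array error and not variation between mice. Their median over measured transporter genes was 0.21 log2 in each comparison, with a highest value of 0.34 log2 in male Tg over male WT and 0.42 log2 for male Tg E2 over male Tg. Where a probe was well above background on 1 array only, the difference is an "at least" value, taken against the lowest clear signal of the other array or the dim probe's own signal, whichever is higher.

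Between 49.9% and 54.8% of spots per array were well above background, and no spot was saturated. All 4 arrays lay on 1 slide. All 11 beta cell markers, all 5 delta cell markers and 10 of 12 alpha cell markers other than Slc38a5 were well above background on every array. Their levels were not alike. For male Tg over male WT, 8 of 11 beta cell markers were at least 2-fold lower and none higher, with a median of −1.76 log2 and a range between −4.41 (Ucn3) and 0.71 log2. Over all genes measured in this comparison 9.14% were lower and 15.5% higher, with a median of −0.22 log2. The summed level of the beta cell markers was 2315 on male Tg E2, 2210 on female Tg, 2948 on male Tg and 2362 on male WT. Most of this sum came from Ins1, Ins2 and Iapp, so it says little about the 8 markers that were lower. For male Tg over male WT, Ins1, Ins2 and Iapp were at 0.65, 0.71 and 0.28 log2. No other way of processing is given for these 3 genes. Of the 11, 4 were higher and none lower on male Tg E2 than on male Tg, with a median of 0.64 log2, and on female Tg 5 were higher and none lower, with a median of 0.74 log2. Over all genes 2.60% were higher and 7.95% lower on male Tg E2, with a median of 0.13 log2. On female Tg these values were 3.67%, 8.44% and 0.11 log2. Of the delta cell markers, 4 of 5 were at least 2-fold higher for male Tg over male WT, with a median of 1.43 log2, and none was 2-fold apart in the other comparisons with male Tg. Markers of other pancreatic cells differed between the arrays. The summed level of 23 acinar markers, all well above background on every array, was 10616 times the 75th percentile intensity on the male Tg E2 array, 1802 times on the female Tg array and 17353 times on the male Tg array, against 1654 times on the male WT array. The same sum over 10 erythrocyte markers, of which 7 or 8 were well above background on an array, was 165 on male Tg E2, 489 on female Tg, 1417 on male Tg and 312 on male WT. Over 13 stellate cell and matrix markers, 12 or 13 of them well above background, it was 208 on male Tg E2, 133 on female Tg, 236 on male Tg and 56.4 on male WT. Over 11 lymphocyte markers, 10 or 11 of them well above background, it was 23.4 on male Tg E2, 61.6 on female Tg, 87.6 on male Tg and 14.9 on male WT. Over 8 ductal markers, 6 or 8 of them well above background, it was 132 on male Tg E2, 16.6 on female Tg, 234 on male Tg and 19.9 on male WT. Most of the ductal sum on male Tg E2 and male Tg came from Tff2 (levels 6.80 and 7.72, against 1.88 on male WT). Of 6 ductal markers measured for male Tg over male WT, 3 were at least 2-fold higher, with a median of 1.07 log2. Another, Krt7, was lower (−1.06 log2). Many of the genes described below were also highest on the male Tg array, and the part of those other cells in the results was not tested. In such bulk samples fewer cells of a type and less RNA per cell cannot be told apart.

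**Figure D1:**
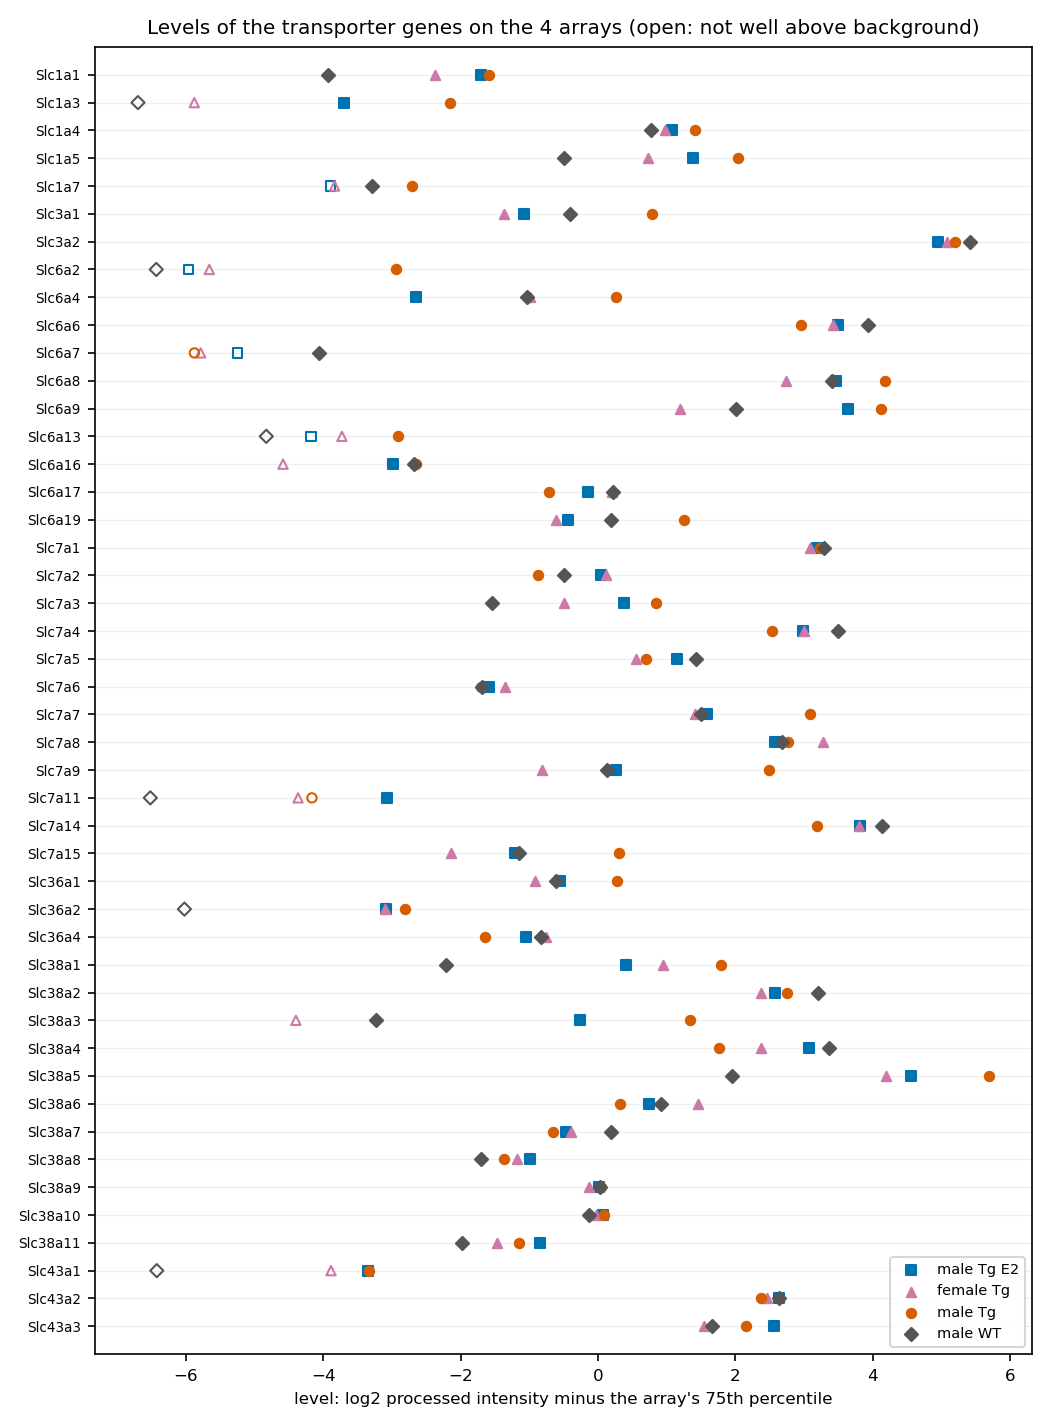
Level of each of the 46 transporter genes that were well above background on at least 1 array (horizontal axis, log2 processed intensity minus the 75th percentile of the array), with 1 symbol per array and open symbols where the probe was not well above background. Of genes clear on both the male Tg and male WT arrays, Slc38a5, Slc38a1 and Slc38a3 show the widest gaps between these symbols, whereas those of Slc7a1, Slc38a9 and Slc38a10 nearly coincide.

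Of the 60 genes, 36 were well above background on all 4 arrays, 10 on 1 to 3 arrays and 14 on none. The count was 42 genes on the male Tg E2 array, 37 on the female Tg array and 44 on the male Tg array, against 40 on the male WT array, while the share of all named genes was 67.9% on male Tg E2, 65.3% on female Tg, 68.0% on male Tg and 68.3% on male WT. The 14 genes without a clear signal included the GABA carrier Slc6a11, the dopamine carrier Slc6a3, the glycine carrier Slc6a5 and the glial glutamate carrier Slc1a2. Among the others were Slc1a6, Slc6a12, Slc6a14, Slc6a15, Slc6a18, Slc7a10, Slc7a12, Slc7a13 and Slc36a3. Of 36 genes clear on every array, 17 had their highest level on the male Tg array (47.2%), against 25.1% of all named genes clear on every array. The male Tg array held the lowest level for 11 of the 36 (30.6%), against 47.2% of all such genes.

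Promoters of 5 genes are shown because the results turn on their carriers. Slc38a5, Slc3a1, Slc7a9 and Slc7a7 were at least 2-fold apart in all 3 comparisons that involve male Tg. Slc6a4, Slc6a19 and Slc7a15 were so too but are not shown, so this trait alone did not set the choice. Slc7a11 is a textbook target of ATF4. Each promoter shown is the 250 bases before a RefSeq start site on build GRCm38.p6, printed 5′ to 3′ on the gene's own strand. The capitals mark matches to the amino acid response element TGATGNAA on either strand. The regions are chrX:8271131-8271380 (plus strand) for Slc38a5, chr17:85028097-85028346 (plus) for Slc3a1, chr7:35448842-35449091 (plus) for Slc7a9, chr14:54417945-54418194 (minus) for Slc7a7 and chr3:50443614-50443863 (minus) for Slc7a11. RefSeq lists 2 promoters for Slc7a9, of which the first is shown, and 5 for Slc7a7, of which the first with a match is shown.
Slc38a5: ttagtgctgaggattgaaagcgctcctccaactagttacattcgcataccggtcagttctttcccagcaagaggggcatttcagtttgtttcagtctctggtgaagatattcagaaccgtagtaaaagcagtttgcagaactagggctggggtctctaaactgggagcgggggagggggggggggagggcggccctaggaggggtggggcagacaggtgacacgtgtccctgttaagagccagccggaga
Slc3a1: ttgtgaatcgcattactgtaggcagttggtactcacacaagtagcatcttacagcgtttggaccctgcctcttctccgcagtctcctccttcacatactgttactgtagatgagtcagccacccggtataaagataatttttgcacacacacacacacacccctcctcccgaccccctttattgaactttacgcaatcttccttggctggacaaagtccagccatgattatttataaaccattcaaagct
Slc7a9: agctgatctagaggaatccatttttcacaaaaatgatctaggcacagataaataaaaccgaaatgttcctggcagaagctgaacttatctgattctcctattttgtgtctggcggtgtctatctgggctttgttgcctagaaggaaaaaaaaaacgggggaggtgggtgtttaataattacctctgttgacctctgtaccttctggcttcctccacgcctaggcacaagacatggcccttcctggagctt
Slc7a7: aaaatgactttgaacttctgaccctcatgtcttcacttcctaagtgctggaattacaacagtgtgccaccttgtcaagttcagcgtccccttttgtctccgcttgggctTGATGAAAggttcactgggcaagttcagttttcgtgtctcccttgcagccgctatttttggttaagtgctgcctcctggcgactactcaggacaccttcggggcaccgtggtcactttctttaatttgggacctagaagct
Slc7a11: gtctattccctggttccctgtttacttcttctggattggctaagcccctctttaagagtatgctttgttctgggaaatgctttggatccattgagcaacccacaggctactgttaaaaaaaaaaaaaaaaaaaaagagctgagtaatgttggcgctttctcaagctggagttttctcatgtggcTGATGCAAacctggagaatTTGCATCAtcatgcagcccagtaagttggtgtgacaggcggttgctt

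The Slc7a11 promoter held 2 matches, one on each strand, the first at −66 to −59 from the start site, and the Slc7a7 promoter 1 match at −141 to −134. The other 3 promoters printed held none. RefSeq's table gave 63 promoters for 42 of the 60 genes, and 18 genes had none. Over windows of 250 bases before and 50 after the start site, the element was in 4 of 63 promoters (6.35%), of Slc1a4, Slc7a7 and Slc7a11, against 3.97% of 32851 promoters of all genes. The estrogen response element, GGTCA and TGACC with 3 bases between them, which reads the same on both strands, was in none of the 63 and in 0.0700% of all. The letters GTTAAT, a core of HNF1 sites, on either strand, were in 6 of the 63 (9.52%) and in 7.10% of all. These are matches of letters only, and a missing match says only that the letters are not in the window.

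Setting male Tg against male WT asks what goes with the transgene and with diabetes in male islets, which cannot be told apart here. Among 39 measured transporter genes, 13 had a male Tg level at least 2-fold higher (33.3%), against 15.5% of all measured genes, and only Slc38a4 was lower by as much (2.56%), against 9.14% of all. The median difference was 0.33 log2, against −0.22 log2 over all 14338 measured genes. With arrays centred on their median instead, the all-gene median moved to −0.56 log2 and at least 2-fold differences were found in 12.0% (higher) and 21.7% (lower) of all genes, and among the transporter genes 10 were higher and 8 lower. A further 5 of 6 genes with a clear signal on 1 array only were higher by an "at least" value of 2-fold or more, against 43.5% of all such genes. The genes that were higher included the glutamine carriers Slc38a1, Slc38a3, Slc38a5 and Slc1a5, the cystine and dibasic amino acid pair Slc3a1 and Slc7a9, and the glycine carrier Slc6a9.

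**Figure D2:**
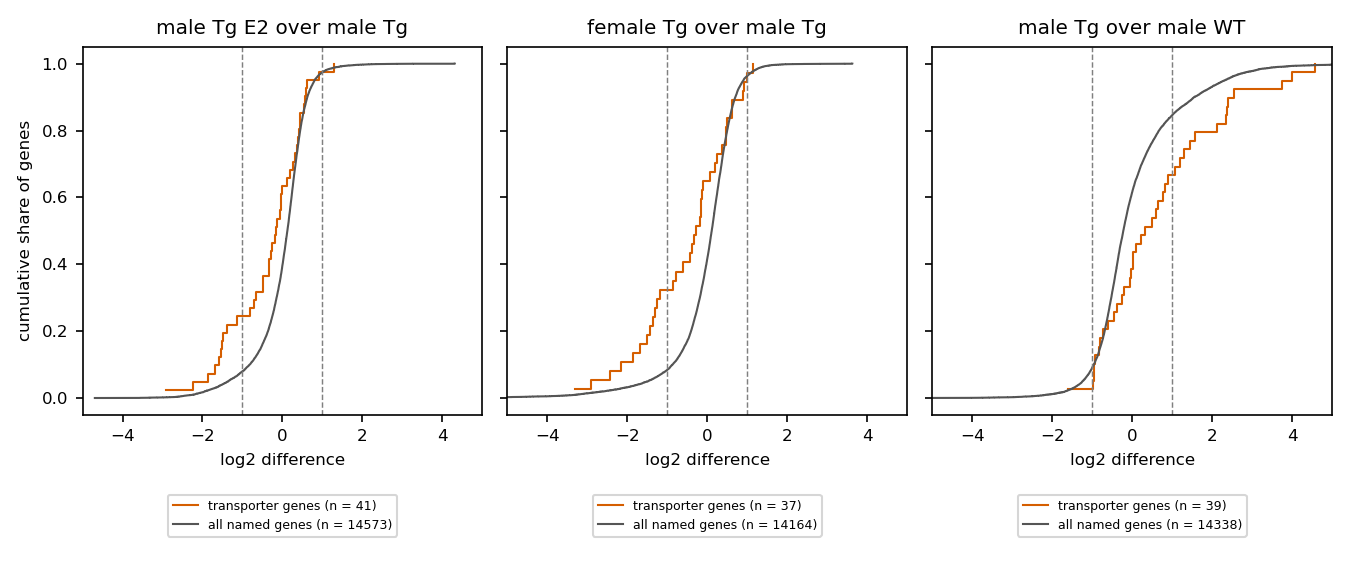
Cumulative share of genes (vertical axis) against the log2 difference (horizontal axis) for the transporter genes and all named genes measured in each comparison, with dashed lines at 2-fold. In male Tg over male WT the transporter curve lies to the right of the curve of all genes above 0, and in the other panels it lies to the left below 0. Panels are cut at 5 log2 in either direction.

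Setting male Tg E2 against male Tg asks what goes with the implant. Here 10 of 41 measured genes had a male Tg E2 level at least 2-fold lower (24.4%), against 7.95% of all measured genes. Only Slc38a4 was at least 2-fold higher (2.44%), against 2.60% of all. The median was −0.17 log2, against 0.13 log2 over 14573 genes, and −0.0065 log2 with arrays centred on their median, against 0.29 log2 over all genes. Of 4 genes clear on 1 array only, Slc1a7 and Slc6a13 were at least 2.29-fold and 2.01-fold lower, against 22.3% of all such genes that were lower by 2-fold or more. In the comparison of female Tg with male Tg, 12 of 37 measured genes were at least 2-fold lower on the female Tg array (32.4%), against 8.44% of all, and only Slc38a6 was higher (2.70%), against 3.67% of all. The median was −0.29 log2, against 0.11 log2 over 14164 genes. Of 7 further genes with a clear signal on either array alone, Slc1a3 and Slc38a3 were lower by 2-fold or more (28.6%), against 27.6% of all such genes. All 3 comparisons share the male Tg array, so a high or low signal on it moves all 3 at once. Only this array is labelled as diabetic. Diabetes therefore cannot be told apart from the transgene, the implant or sex in these comparisons.

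**Figure D3:**
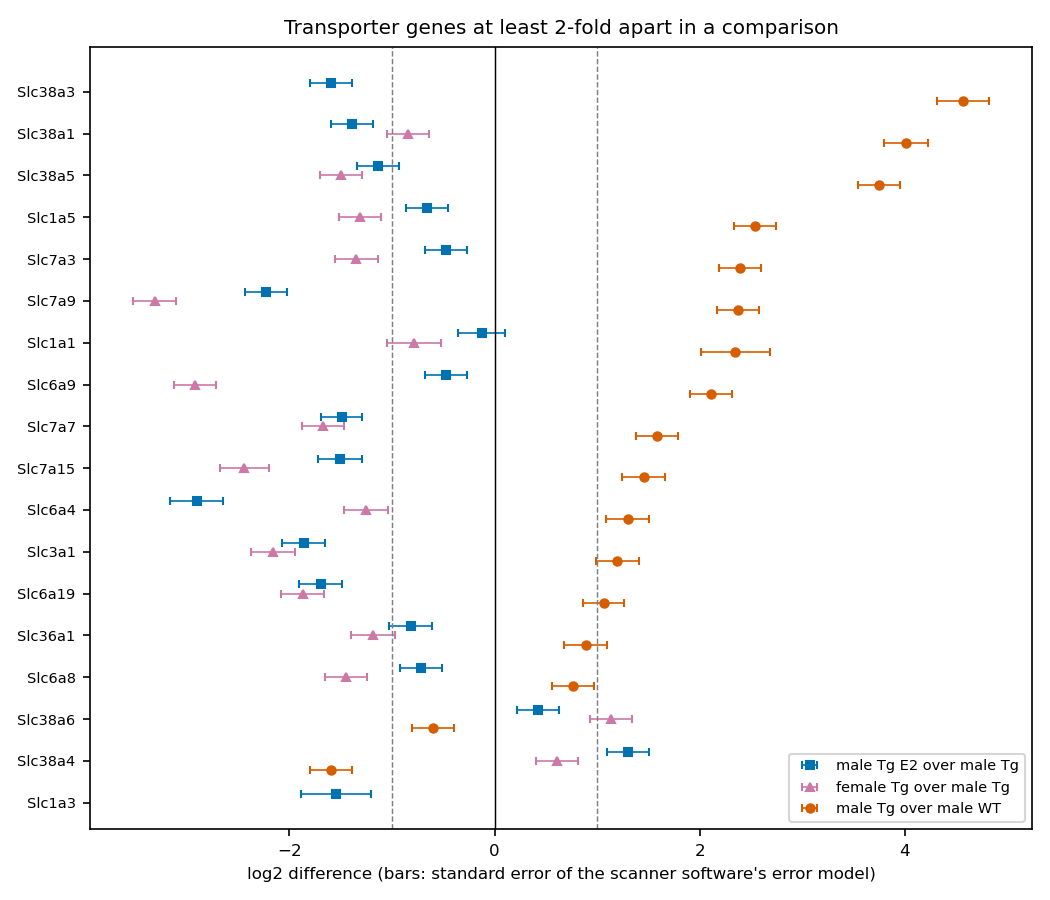
Log2 difference (horizontal axis) of the 18 transporter genes at least 2-fold apart in at least 1 comparison with the male Tg array, with bars of 1 standard error from the scanner software's error model and dashed lines at 2-fold. Slc38a3, Slc38a1 and Slc38a5 lie farthest right for male Tg over male WT, and Slc7a9 and Slc6a9 farthest left for female Tg over male Tg. Genes not measured in a comparison have no symbol there.

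Sodium-coupled neutral amino acid carriers (SLC38), which bring glutamine and other neutral amino acids into cells, held the 3 widest differences of male Tg over male WT, and all 11 were measured on each of the 3 male arrays. Slc38a5, whose probe lies at chrX:7857241-7857300 on mm9, had a level of 4.56 on the male Tg E2 array, 4.20 on the female Tg array and 5.70 on the male Tg array, against 1.95 on the male WT array. The male WT level was the lowest and the male Tg level the highest, and the E2 and female levels lay closer to the male Tg level than to the male WT level. The difference was 3.75 ± 0.20 log2 (13.4-fold) for male Tg over male WT, −1.14 ± 0.20 log2 (2.20-fold lower) for male Tg E2 against male Tg and −1.50 ± 0.20 log2 (2.83-fold lower) for female Tg over male Tg. The E2 difference ranged between −1.26 and −0.97 log2 over 10 other ways of processing and was under 2-fold after quantile normalization, with median centring and with the series matrix values. Compared with male WT, Slc38a5 on the male Tg E2 array was 2.61 ± 0.20 log2 (6.10-fold) higher. On mm9 the probes of the other transporters with the widest differences lie at chr9:107553825-107553884 for Slc38a3, chr15:96406793-96406852 for Slc38a1, chr7:36250920-36250979 for Slc7a9, chr4:117541842-117541901 for Slc6a9 and chr11:76845777-76845836 for Slc6a4.

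Slc38a5 is also used as an alpha cell marker, and 12 other alpha cell markers were set beside it. In male Tg over male WT, 5 of 10 measured markers were at least 2-fold higher and 1, Ddc, was lower. Their median was 0.91 log2, with a range between −1.04 (Ddc) and 3.03 log2 (Fap). Over all genes 15.5% were higher and 9.14% lower, with a median of −0.22 log2. Irx2, a transcription factor of alpha cells, differed by 1.53 log2, and the glucagon gene Gcg by 0.74 log2. The Gcg difference changed sign with quantile normalization, with or without normexp correction, and with the series matrix values (−0.27 log2 at the lowest). No direction is therefore given for Gcg. In male Tg E2 over male Tg none of the 10 was at least 2-fold apart, with a median of 0.31 log2 and a range between −0.46 and 0.46 log2. In female Tg over male Tg none was either, with a median of 0.13 log2 and a range between −0.58 and 0.57 log2. Slc38a5 lay outside the range of the other measured alpha cell markers in both, at −1.14 and −1.50 log2. It also lay outside their range for male Tg over male WT, at 3.75 log2.

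Slc38a3, a carrier that can move glutamine in either direction and is best known from liver, kidney and brain, had a level of −0.26 on the male Tg E2 array and 1.34 on the male Tg array, against −3.23 on the male WT array, and was not well above background on the female Tg array (−4.40). It was 4.57 ± 0.25 log2 (23.7-fold) higher for male Tg over male WT, the widest difference of any transporter gene measured in that comparison, and 3.05 to 4.79 log2 under the other ways of processing. On the male Tg E2 array it was −1.59 ± 0.21 log2 (3.02-fold lower) compared with male Tg, and on the female Tg array at least 30.8-fold lower. The female array stood with the male WT array at the low end for this gene, while for Slc38a5 it stood near the E2 array. The acinar sum was likewise high on male Tg (17353) and male Tg E2 (10616) and low on female Tg (1802) and male WT (1654). The part of acinar cells in the Slc38a3 result was not tested.

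Slc38a1, a glutamine carrier of neurons and many other cells, had a level of 0.40 on the male Tg E2 array, 0.95 on the female Tg array and 1.80 on the male Tg array, against −2.21 on the male WT array. The 3 transgenic arrays were all far above the male WT array, and the difference was 4.01 ± 0.22 log2 (16.1-fold) for male Tg over male WT. It was −1.39 ± 0.20 log2 for male Tg E2 against male Tg and −0.85 ± 0.20 log2, under 2-fold, for female Tg over male Tg. Another probe of Slc38a1, too dim on the male WT array to be measured there, differed by −0.75 and −0.36 log2 in the same comparisons.

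Slc38a4, which also carries cationic amino acids, ran the opposite way. Its level was 3.07 on the male Tg E2 array, 2.38 on the female Tg array and 1.77 on the male Tg array, against 3.36 on the male WT array. It was the only transporter gene at least 2-fold lower for male Tg over male WT, at −1.60 ± 0.20 log2 (3.03-fold lower), and the only one at least 2-fold higher for male Tg E2 over male Tg, at 1.30 ± 0.20 log2 (2.47-fold). The difference for female Tg over male Tg was 0.61 ± 0.20 log2. The beta cell markers moved the same way by their medians, given above, which were below 0 for male Tg over male WT and above 0 in both other comparisons. G6pc2, the islet glucose-6-phosphatase, was at −2.69 log2 for male Tg over male WT, 2.34 log2 for male Tg E2 against male Tg and 1.50 log2 for female Tg over male Tg. The beta cell markers Ins1, Ins2 and Iapp went the opposite way, each by under 2-fold. They were at 0.65, 0.71 and 0.28 log2 for male Tg over male WT and −0.51, −0.47 and −0.31 log2 for male Tg E2 against male Tg. For female Tg over male Tg they were at −0.54, −0.63 and −0.42 log2. The part of the beta cells in the Slc38a4 result was not tested.

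The remaining SLC38 genes differed less. Slc38a6 was 1.14 ± 0.21 log2 (2.20-fold) higher for female Tg over male Tg, with levels of 0.74 on male Tg E2, 1.45 on female Tg, 0.31 on male Tg and 0.91 on male WT, and its other probe gave 0.62 log2, so that the mean over probes was under 2-fold (0.88 log2). Slc38a2, which cells induce when amino acids run short, had levels of 2.58 on male Tg E2, 2.37 on female Tg, 2.75 on male Tg and 3.20 on male WT. Slc38a9, a lysosomal arginine sensor that signals to mTORC1, had levels of 0.02 on male Tg E2, −0.13 on female Tg, 0.05 on male Tg and 0.03 on male WT, within 1 standard error of each other in every comparison. Slc38a7, Slc38a8, Slc38a10 and Slc38a11 stayed between −0.84 and 0.83 log2 in the 3 comparisons, and Slc38a11 was 1.14 log2 higher for male Tg E2 over male WT, a difference under 2-fold after normexp correction with or without quantile normalization and with median centring (0.64 log2 at the lowest).

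Heavy and light chains come next. Slc3a1 (rBAT) and Slc7a9 form the carrier that takes up cystine and dibasic amino acids, well known from kidney and intestine. Slc7a9 had a level of 0.27 on the male Tg E2 array, −0.82 on the female Tg array and 2.50 on the male Tg array, against 0.13 on the male WT array. The male Tg array stood alone at the high end, 2.37 ± 0.20 log2 (5.16-fold) above male WT. Compared with male Tg, Slc7a9 was −2.23 ± 0.20 log2 (4.69-fold lower) on the male Tg E2 array and −3.31 ± 0.21 log2 (9.94-fold lower) on the female Tg array.

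Its partner Slc3a1 had a level of −1.07 on the male Tg E2 array, −1.37 on the female Tg array and 0.79 on the male Tg array, against −0.41 on the male WT array. The order of the arrays differed from that of Slc7a9 only in that male WT lay above male Tg E2. The difference was 1.20 ± 0.21 log2 for male Tg over male WT, −1.86 ± 0.21 log2 for male Tg E2 against male Tg and −2.16 ± 0.22 log2 for female Tg over male Tg. The first of these was under 2-fold with median centring (0.86 log2) and after normexp background correction.

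Slc7a7, a light chain that exports cationic amino acids and partners Slc3a2, had levels of 1.59 on the male Tg E2 array, 1.41 on the female Tg array and 3.08 on the male Tg array, against 1.50 on the male WT array. Only the male Tg array stood apart, at 1.58 ± 0.20 log2 (2.99-fold) above male WT. The E2 and female arrays differed from it by −1.49 ± 0.20 and −1.67 ± 0.20 log2. Slc7a15, grouped with the light chains, had levels of −1.21 on male Tg E2, −2.14 on female Tg, 0.30 on male Tg and −1.16 on male WT, with differences of 1.46 ± 0.21 log2 in male Tg over male WT, −1.51 ± 0.21 log2 for male Tg E2 against male Tg and −2.44 ± 0.24 log2 for female Tg over male Tg. Its other 2 probes gave 1.19 and 1.68 log2 in the first comparison.

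Slc6a19, the main carrier of neutral amino acids across the border of kidney and gut epithelia, had the same order of arrays as Slc3a1. Its level was −0.44 on the male Tg E2 array, −0.62 on the female Tg array and 1.25 on the male Tg array, against 0.19 on the male WT array. The differences were 1.06 ± 0.20 log2 for male Tg over male WT, −1.70 ± 0.21 log2 for male Tg E2 against male Tg and −1.87 ± 0.21 log2 for female Tg over male Tg. The first was under 2-fold with median centring (0.72 log2) and after normexp correction. On the male Tg E2 array, Slc3a1 and Slc6a19 were −0.66 and −0.63 log2 against male WT, while Slc7a9, Slc7a7 and Slc7a15 were within 0.14 log2 of it. The acinar sum on the male Tg E2 array was 10616, against 1654 on male WT, beside these small differences, and its part in them was not tested.

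The heavy chain Slc3a2 (CD98), which partners most light chains, had levels of 4.95 on male Tg E2, 5.08 on female Tg, 5.20 on male Tg and 5.41 on male WT, and its differences in the 3 comparisons lay between −0.25 and −0.12 log2. Its light chain partner Slc7a5, the main importer of leucine in many cells, had levels of 1.15 on male Tg E2, 0.55 on female Tg, 0.70 on male Tg and 1.43 on male WT, with differences of −0.73 ± 0.20 log2 in male Tg over male WT and 0.45 ± 0.20 log2 for male Tg E2 over male Tg. Another Slc7a5 probe read −0.56 log2 in the E2 comparison, so no direction is given for it there. Slc7a8, a related light chain read by 10 spots, had levels of 2.58 on male Tg E2, 3.27 on female Tg, 2.77 on male Tg and 2.68 on male WT, and Slc7a6 lay between −1.71 and −1.35 on all 4 arrays. Slc7a11, the light chain that exchanges cystine for glutamate, had a clear signal on the male Tg E2 array only (−3.08), at least 2.56-fold above the male WT array and at least 1.57-fold above the male Tg array.

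Of the cationic carriers, which bring arginine and lysine into cells, Slc7a3 had a level of 0.37 on the male Tg E2 array, −0.50 on the female Tg array and 0.85 on the male Tg array, against −1.55 on the male WT array. It was 2.39 ± 0.21 log2 (5.25-fold) higher for male Tg over male WT and −1.35 ± 0.21 log2 (2.54-fold lower) for female Tg over male Tg, while the E2 difference was −0.47 ± 0.21 log2. Slc7a1, found in most cells, had levels of 3.18 on male Tg E2, 3.09 on female Tg, 3.23 on male Tg and 3.30 on male WT and stayed within 0.15 log2 in every comparison. Slc7a2 was lowest on the male Tg array, with levels of 0.04 on male Tg E2, 0.12 on female Tg, −0.88 on male Tg and −0.49 on male WT, and its differences of 0.92 ± 0.21 log2 for male Tg E2 against male Tg and 0.99 ± 0.21 log2 for female Tg over male Tg were just under 2-fold. The second passed 2-fold with quantile normalization, arrays centred on their median or the series matrix values (at most 1.13 log2), and the first with median centring (1.08 log2). Slc7a4 and Slc7a14, relatives of this group, differed by −0.96 and −0.95 log2 for male Tg over male WT and lay between 0.45 and 0.63 log2 in the comparisons with male Tg as the second array.

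**Figure D4:**
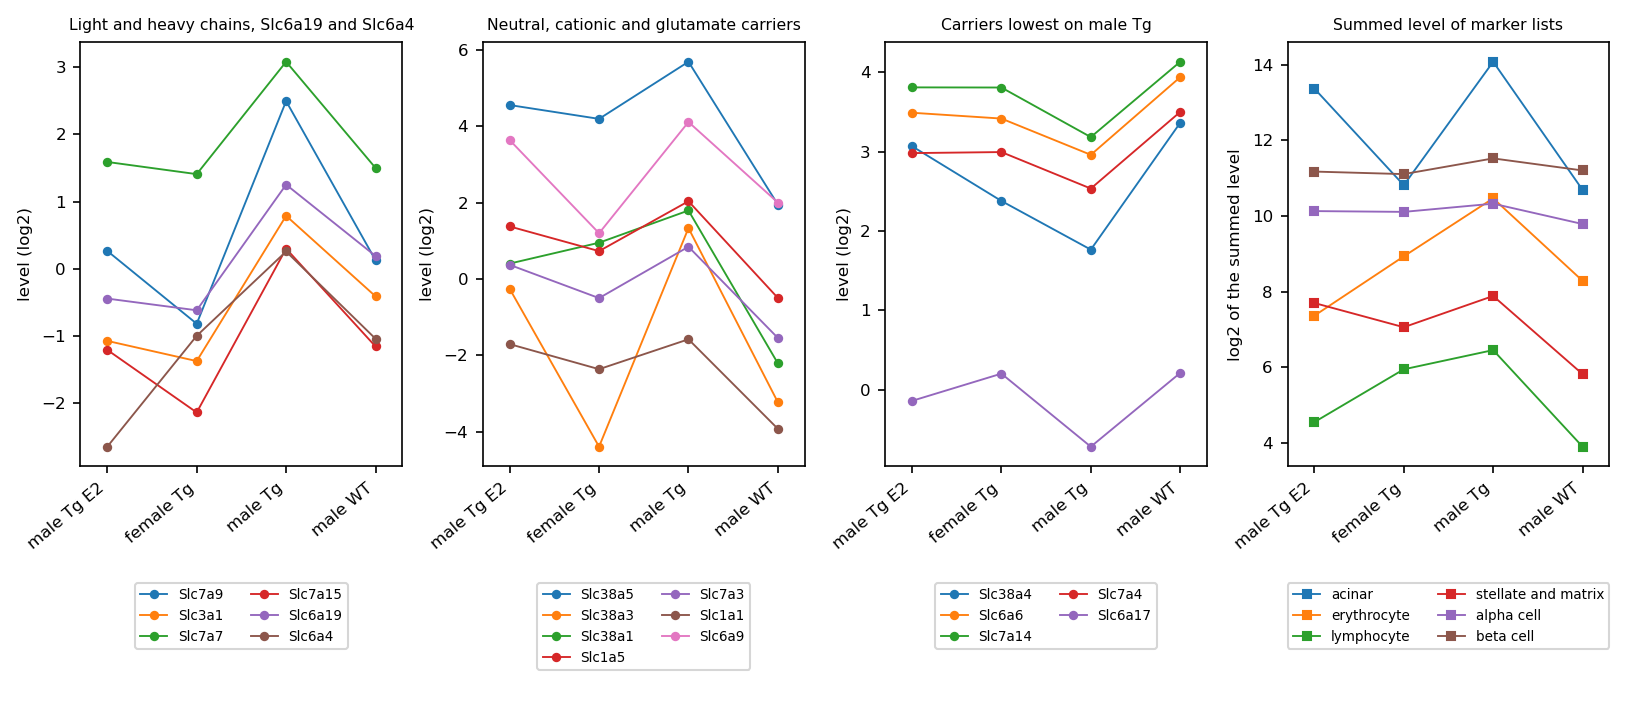
Levels of selected transporter genes (first 3 panels, log2 processed intensity minus the 75th percentile of the array) and log2 of the summed level of marker lists (last panel) on the 4 arrays, with lines that only join the points of 1 gene or list. The light chains Slc7a7, Slc7a9 and Slc7a15, the heavy chain Slc3a1, Slc6a19 and Slc6a4 are highest on the male Tg array, several neutral and glutamate carriers are also high on the male Tg E2 array, and Slc38a4, Slc6a6, Slc7a4, Slc7a14 and Slc6a17 are lowest on the male Tg array. The Slc38a3 point on the female Tg array was not well above background.

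Among the SLC1 carriers, Slc1a5, which exchanges glutamine and other neutral amino acids, had a level of 1.38 on the male Tg E2 array, 0.73 on the female Tg array and 2.04 on the male Tg array, against −0.50 on the male WT array. The male WT array stood alone at the low end, and the difference was 2.54 ± 0.21 log2 (5.80-fold) for male Tg over male WT, −0.66 ± 0.20 log2 for male Tg E2 against male Tg and −1.31 ± 0.20 log2 (2.48-fold lower) for female Tg over male Tg. A second probe of the gene gave 2.67, −0.53 and −0.75 log2 in these comparisons.

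Slc1a1, a glutamate carrier that also takes up cysteine, was read by 10 spots, which allowed a spread within each array. Its mean level was −1.71 ± 0.20 on the male Tg E2 array, −2.37 ± 0.19 on the female Tg array and −1.58 ± 0.08 on the male Tg array, against −3.93 ± 0.37 on the male WT array (SD over 10 spots of 1 array). On the male WT array 8 of 10 spots were well above background. The difference was 2.35 ± 0.34 log2 (5.09-fold) for male Tg over male WT and −0.78 ± 0.26 log2 for female Tg over male Tg. The first was 0.87 log2 after normexp correction with quantile normalization, and that for male Tg E2 over male WT, given later, 0.82 log2. The male Tg E2 array lay within 1 standard error of male Tg (−0.13 ± 0.23 log2).

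The glial glutamate carrier Slc1a3 had a clear signal on the male Tg E2 array (−3.70) and the male Tg array (−2.15) only, with −5.88 on the female Tg array and −6.70 on the male WT array. It was at least 4.85-fold higher for male Tg over male WT, −1.54 ± 0.34 log2 (2.92-fold lower) for male Tg E2 against male Tg and at least 2.74-fold lower for female Tg over male Tg. The E2 difference was under 2-fold after normexp correction with or without quantile normalization (nearest to 0, −0.57 log2). Slc1a4, a neutral amino acid carrier, had levels of 1.08 on male Tg E2, 0.97 on female Tg, 1.41 on male Tg and 0.77 on male WT with no difference of 2-fold.

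Among the neurotransmitter carriers, Slc6a4, the serotonin carrier, had a level of −2.65 on the male Tg E2 array, −1.0 on the female Tg array and 0.26 on the male Tg array, against −1.04 on the male WT array. The E2 array was the lowest and the male Tg array the highest, and the female and male WT arrays were close together. The difference was −2.91 ± 0.26 log2 (7.49-fold lower) for male Tg E2 over male Tg, the widest of any measured transporter gene in that comparison, 1.30 ± 0.21 log2 (2.46-fold) for male Tg over male WT and −1.25 ± 0.21 log2 (2.39-fold lower) for female Tg over male Tg. It was also the only transporter gene at least 2-fold lower for male Tg E2 over male WT (−1.61 ± 0.26 log2). That value was under 2-fold after normexp correction with or without quantile normalization (nearest to 0, −0.85 log2), the female difference after normexp correction (−0.98 log2), and the male WT difference with median centring or normexp and quantile normalization (nearest to 0, 0.96 log2). The erythrocyte sum was likewise lowest on the male Tg E2 array (165) and highest on the male Tg array (1417), and its part in the result was not tested.

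Slc6a9, which takes up glycine, had a level of 3.64 on the male Tg E2 array, 1.20 on the female Tg array and 4.12 on the male Tg array, against 2.0 on the male WT array. The male E2 and male Tg arrays were both high and the female array was the lowest. It was 2.11 ± 0.20 log2 (4.33-fold) higher for male Tg over male WT and −0.47 ± 0.20 log2 for male Tg E2 over male Tg, but −2.92 ± 0.20 log2 (7.55-fold lower) for female Tg over male Tg. A second probe of Slc6a9 gave 2.37, −0.61 and −2.96 log2. The acinar sum was likewise high on both of these arrays, at 10616 on the male Tg E2 array, 1802 on the female Tg array, 17353 on the male Tg array and 1654 on the male WT array, and its part in the result was not tested.

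The creatine carrier Slc6a8 had levels of 3.46 on male Tg E2, 2.73 on female Tg, 4.18 on male Tg and 3.41 on male WT, and of its 3 differences only that for female Tg over male Tg passed 2-fold (−1.45 ± 0.20 log2, 2.72-fold lower). The taurine carrier Slc6a6 was lowest on the male Tg array, with levels of 3.49 on male Tg E2, 3.42 on female Tg, 2.96 on male Tg and 3.94 on male WT and a difference of −0.98 ± 0.20 log2 in male Tg over male WT, which passed 2-fold with median centring (−1.32 log2) and after normexp correction. Slc6a17, which loads neutral amino acids into synaptic vesicles, had levels of −0.14 on male Tg E2, 0.20 on female Tg, −0.72 on male Tg and 0.21 on male WT. The noradrenaline carrier Slc6a2 and the GABA carrier Slc6a13 were well above background on the male Tg array only, at −2.95 and −2.90, and at least 2.80-fold and 2.89-fold higher there than on the male WT array. The proline carrier Slc6a7 was clear on the male WT array only.

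Of the proton-coupled carriers, Slc36a1, which exports small amino acids from lysosomes, had a level of −0.55 on the male Tg E2 array, −0.91 on the female Tg array and 0.27 on the male Tg array, against −0.62 on the male WT array. It was −1.18 ± 0.21 log2 (2.27-fold lower) for female Tg over male Tg and under 2-fold in the other comparisons, at 0.89 ± 0.21 log2 for male Tg over male WT and −0.82 ± 0.21 log2 for male Tg E2 over male Tg. The female difference was under 2-fold after normexp correction with or without quantile normalization and with the mean over probes (nearest to 0, −0.92 log2). Slc36a2 was clear on the male Tg E2 array (−3.09), the female Tg array (−3.09) and the male Tg array (−2.80), and not on the male WT array, over which male Tg was at least 3.09-fold higher. Slc43a1, a carrier of branched-chain amino acids, was at least 2.14-fold higher for male Tg over male WT, and its relative Slc43a2 stayed within 0.26 log2 in the 3 comparisons.

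The male Tg E2 array was also set against male WT. Of 38 measured transporter genes, 8 were at least 2-fold higher (21.1%), against 8.76% of all measured genes, and 1 was lower (2.63%), against 2.70% of all, with a median of −0.01 log2 against −0.10 log2 over all genes. The 8 were Slc38a3 (2.98 log2), Slc38a1 (2.62), Slc38a5 (2.61), Slc1a1 (2.22), Slc7a3 (1.92), Slc1a5 (1.88), Slc6a9 (1.64) and Slc38a11 (1.14). Of 6 genes clear on 1 array only, Slc7a11, Slc36a2 and Slc43a1 were at least 2.56-fold, 2.54-fold and 2.12-fold higher, against 32.7% of all such genes.

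Genes that act with these carriers were taken from lists of amino acid biology. Of 31 measured genes of the amino acid response, 5 were at least 2-fold higher and 7 lower for male Tg over male WT, against 15.5% higher and 9.14% lower over all genes, with a median of −0.43 log2 against −0.22 log2. Those that were higher included Fgf21, a secreted stress hormone (5.57 log2), Cth, which makes cysteine (3.43), and Atf3, a stress-induced transcription factor (1.97), whereas the tRNA synthetase genes Aars, Cars and Sars were at −2.21, −1.08 and −1.07 log2. Aars stayed at least 2-fold lower under all 10 other ways of processing, whereas Cars and Sars did not (nearest to 0, −0.86 and −0.85 log2). For male Tg E2 over male Tg 3 of 32 were lower, against 7.95% of all genes, and none higher, namely Fgf21 (−2.74), Cth (−1.65) and Atf3 (−1.15). For female Tg over male Tg 8 of 32 were lower and 1 higher, against 8.44% lower and 3.67% higher over all genes, with Fgf21 at −4.38, Cth at −3.89 and Nupr1, a small stress-induced nuclear protein, at −2.94 log2.

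Of 26 measured genes of mTORC1 amino acid sensing, none was at least 2-fold higher and 5 were lower for male Tg over male WT, with a median of −0.66 log2, against 15.5% higher, 9.14% lower and a median of −0.22 log2 over all genes. They were Flcn (−1.62 log2), Fnip2 (−1.44), Rragd (−1.42), Rragc (−1.13) and Fnip1 (−1.12), which encode folliculin, its partners and Rag GTPases of the lysosome. Flcn and Fnip2 stayed at least 2-fold lower under all 10 alternatives, whereas the other 3 did not, with Rragd at −0.19 log2 after normexp correction. Medians for the other comparisons were 0.36 log2 for male Tg E2 over male Tg, with no gene 2-fold apart, and 0.47 log2 for female Tg over male Tg, with Rragd higher (1.59, but 0.47 at the lowest after normexp correction), against medians of 0.13 and 0.11 log2 over all genes.

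Of 16 measured genes of glutamine and glutamate metabolism, 4 were at least 2-fold higher and 3 lower for male Tg over male WT, against 15.5% and 9.14% of all genes. Prodh, which breaks down proline, was at 2.44 log2, and Gls2, a glutaminase, at 2.20 log2 with levels of 2.43 on the male Tg E2 array, −0.60 on the female Tg array and 1.67 on the male Tg array, against −0.52 on the male WT array. Gad1, which makes GABA from glutamate, was at −5.82 log2 for male Tg over male WT, 2.24 log2 for male Tg E2 against male Tg and 2.03 log2 for female Tg over male Tg. Of 14 genes of branched-chain amino acid breakdown, 2 were higher and 2 lower for male Tg over male WT, near the shares over all genes, with Bcat1, a cytosolic transaminase, at 1.67 log2 (0.49 log2 at the lowest under an alternative) and Ivd, a step of leucine breakdown, at −1.37 log2.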

How the data were processed

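Islet RNA of 4 groups was measured on 1 array each. The values are Cy3 intensity on a linear scale, background-corrected by the scanner software, as the authors deposited it. Feature Extraction was version 10.7.1.1 per the file headers and 9.5.1.1 per the submitters' processing notes. Probe positions in the headers refer to mm9, and no exon or untranslated region was assigned from them. The deposited series matrix holds linear intensity with the same quartiles in all 4 columns, as after quantile normalization, and served as an alternative.

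Spots with an outlier flag were left out and spots of a probe averaged. Values were put on a log2 scale and centred on each array's 75th percentile of non-control probes. A probe was well above background when over 0.5 of its spots were. Each gene name found as a symbol or synonym in RefSeq's table of GRCm38.p6, used for names only, kept its probe with the highest mean. "At least" values use the lowest level among probes well above background, or the dim probe's own level if higher. Where several probes of a transporter gene were measured, the sign was opposite for Slc38a9 in male Tg over male WT and for Slc7a5 in male Tg E2 over male Tg.

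Every gene of the rule may be named, and levels on each array are given for those at least 2-fold apart in a comparison with male Tg and for a set of carriers named whatever their value. Of each other list, up to 4 genes with the widest differences are named for a comparison. Genes named beyond these (Gcg, Ddc, Ins1, Ins2, Iapp, Cars, Sars, Fnip1 and Slc18a2) were chosen after their values were seen. Some genes of the lists are not reported here by name. The 60 genes and all lists were chosen with earlier results of these data known. The steps were tested on simulated data. Alternatives covered background correction (normexp, offset 50), scaling, source of values, filter, probe choice, flags and centring. Python 3.11.15, numpy 2.4.6, pandas 2.3.3, R 4.3.3 and limma 3.58.1 were used.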

Additional observations from a re-analysis of the deposited data

How the results depend on the processing

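No paired analysis was possible because each group has 1 array and the labels carry no replicate number. For male Tg over male WT, with 13 transporter genes at least 2-fold higher and 1 lower, the lower count was 4 after normexp correction, 8 with arrays centred on their median, 2 with the mean over probes and 2 with no background filter, which also gave 21 higher. The median of 0.33 log2 was −0.016 with median centring, 0.67 with no filter and 0.55 relative to the median of all genes, the last of these chosen after seeing the data. For male Tg E2 over male Tg the higher count of 1 was 2 with median centring and 3 with no filter. For female Tg over male Tg the higher count of 1 was 2 with quantile normalization, 2 with the series matrix values, 4 with median centring, 3 with no filter and 0 with the mean over probes, and the lower count of 12 was 20 with no filter. For male Tg E2 over male WT the higher count of 8 was 14 with no filter. The lower count of 1 was 0 after normexp correction with or without quantile normalization, and 2 with no filter. The median for male Tg E2 over male Tg, −0.17 log2, was −0.059 after normexp correction with quantile normalization and −0.29 relative to all genes, and that for female Tg over male Tg, −0.29 log2, lay between −0.40 and −0.16. Of the named transporter genes at least 2-fold apart, none changed sign under the 9 or 10 alternatives that measured it, and 10 of 14, 9 of 11, 10 of 13 and 6 of 9 stayed at least 2-fold apart under each, in the order male Tg over male WT, male Tg E2 over male Tg, female Tg over male Tg and male Tg E2 over male WT. In that order 5, 1, 2 and 0 named transporter genes under 2-fold passed it under some alternative. Of the named genes of other lists that were 2-fold apart, none changed sign, and 16 of 23, 7 of 11, 12 of 16 and 11 of 12 stayed so. The causes of these shifts were not tested, except that dropping the filter counts all 60 genes. Probes near background give only bounds, with floors for "at least" values between −4.43 and −3.61 log2.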

Other observations

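Some amino acid and monoamine carriers of other families are on a list of 20 genes outside the 7 families or outside the naming rule. Of these, 14 were measured for male Tg over male WT, where 2 were at least 2-fold higher and 1 lower, with a median of −0.20 log2. This is near the values over all genes, with 15.5% higher, 9.14% lower and a median of −0.22 log2. Slc18a1, which loads monoamines into secretory granules, had a level of 0.81 on the male Tg E2 array, 0.14 on the female Tg array and −0.86 on the male Tg array, against 0.50 on the male WT array. It was −1.37 log2 for male Tg over male WT, 1.68 log2 for male Tg E2 against male Tg and 1.0 log2 for female Tg over male Tg. Its relative Slc18a2 had levels of −1.57 on male Tg E2, −1.31 on female Tg, −1.15 on male Tg and −2.03 on male WT. Slc6a20a, a carrier of proline and related compounds whose name ends in a letter, was at 0.98 log2 for male Tg over male WT, −1.24 log2 for male Tg E2 against male Tg and −1.71 log2 for female Tg over male Tg.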
